A study of Mus musculus with 4 samples.

Results

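The fibroblast growth factor (FGF) module of the mouse embryo was read in metanephric mesenchyme (MM) set against intermediate mesoderm (IM), each dissected at 10.5 days post coitum. MM gives rise to the nephrons of the permanent kidney, and IM is the strip of mesoderm from which kidney and gonad arise. RNA of both tissues, from embryos of both sexes, was amplified and hybridised together on 4 oligonucleotide arrays with 2 channels each, with MM in channel 1 on arrays 1 and 2 and in channel 2 on arrays 3 and 4 (the first and the reversed orientation). The labels of arrays 3 and 4 exchange the nouns of the tissue names (metanephric mesoderm, intermediate mesenchyme), which were taken here to mean MM and IM. Every probe was taken whose annotated symbol was a numbered Fgf, Fgfr, Spry, Spred or Dusp gene, or Fgfrl1 or Il17rd. This gave 55 of the 22702 probes, for 51 genes: 24 probes for 22 ligands, 5 for as many receptors, 6 for 5 Sprouty and Spred genes, and 20 for 19 Dusp phosphatases. No annotated probe carried the symbol Il17rd.

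FGF ligands bind receptor tyrosine kinases together with heparan sulfate, and the activated receptor passes its signal through Ras to the kinases of the ERK cascade. Sprouty and Spred proteins hold back Ras and Raf, and some dual-specificity phosphatases (Dusp) remove the activating phosphates from ERK, and several of these genes are switched on by the signal they restrain. In the mouse kidney, Fgf9 and Fgf20 keep nephron progenitors alive, Fgf8 is needed for nephron formation, Fgf10 acts on the ureteric bud through Fgfr2, and Spry1 limits the bud's response to Gdnf.

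All values are the authors' log2 ratios, positive where MM was higher. That direction is likely from the labels but not settled, since no label ties a channel to a dye. A ratio of 0.01, or -6.64 on the log2 scale, was the lowest value on every array and is treated as a floor, not as a measured fold. Across all 14184 probes with 4 values, limma was fitted with a term for channel orientation and again without it. A gene is called higher or lower only where both passed a Benjamini-Hochberg adjusted p of 0.05. Where a pair of p-values is given, the one from the fit with the term comes before the one without it. The arrays followed their orientation closely. Across 13191 probes above the floor, Pearson's r was 0.836 within the first orientation, 0.912 within the reversed one and 0.113 to 0.274 between them. With floor values included it was -0.349 to -0.26 between orientations. The labels do not say whether arrays share RNA extracts, and p-values cover just the spread among the 4 arrays, which may be technical. In the fit with the term, p-values and the 95% intervals given here cover only the spread within each orientation. The gap between orientations is left out of them. With each orientation averaged to 1 value, limma called 0 probes in all, 0 members among them, and 2 members were higher and 2 lower at an unadjusted p under 0.05. Six2, a factor of nephron progenitors, averaged 3.00 ± 0.63 and Gdnf 1.92 ± 0.13 (SD, n = 4), both on the MM side on every array. Markers were chosen with earlier results of these data known, so this is no independent check of the direction. Among 11 tested probes of nephrogenic mesenchyme markers, 6 were higher and 1 was lower in MM, while those for Eya1, Pax2 and Hoxd11 passed in neither fit. Among 8 for gonad and adrenal primordium, 1 was higher and 6 were lower. The same Wt1 probe (mean -1.57 ± 0.02) is the lower nephrogenic marker and 1 of the 6 lower gonad and adrenal markers.

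Dusp6 and Fgfr2 stood on the MM side and Spry1 and Fgf6 on the IM side, while the kidney ligand Fgf8 read close to 0. Of the 55 probes, 32 had values on all 4 arrays and were tested. In both fits 4 were higher in MM (12.5% of those tested, against 13.6% of all tested probes) and 8 were lower (25.0%, against 14.4% of all). The share higher was thus near that of all probes. The probes higher in MM were Dusp6, Fgfr2, Dusp14 and 1 of those for Spred1. The lower ones were Dusp23, Fgf6, Dusp19, Dusp16, Spry1, Dusp11, Dusp1 and 1 of those for Dusp12. All 12 had the same sign on 4 arrays. A same sign was seen for 7 members upwards and 12 downwards, against 21.0% and 28.4% of all tested probes. With the orientation term alone 6 members were higher and 15 lower, where 23.8% and 38.1% of all tested probes passed. Of those lower, 12 of the 15 members and 4553 of all 5408 probes had no value at the floor. In such whole-tissue RNA, fewer cells of a type and less RNA per cell cannot be told apart.

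**Figure D1:**
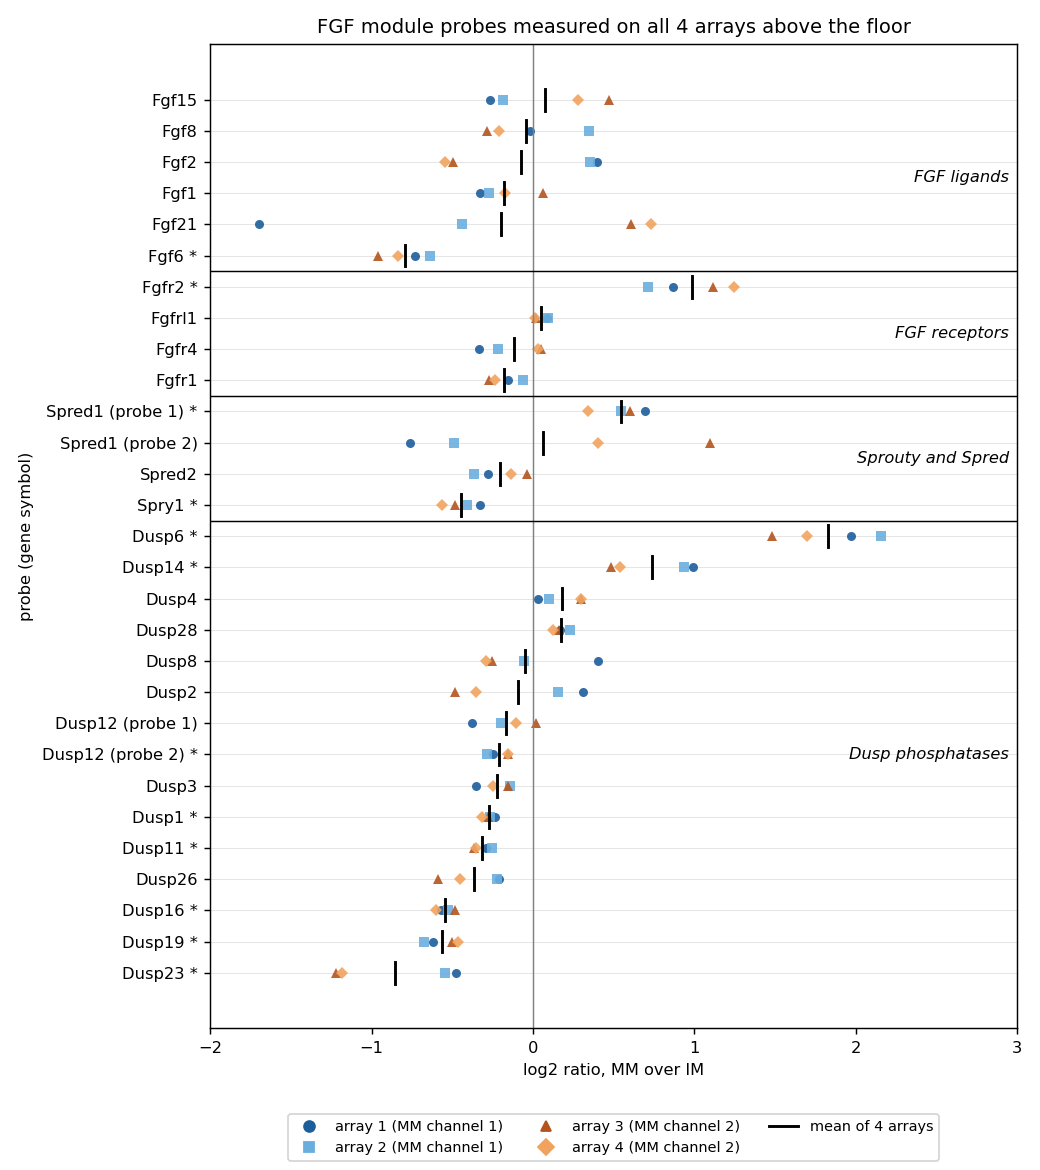
Log2 ratio of MM over IM (horizontal axis) for the 29 member probes with values above the floor on all 4 arrays, by class. Symbols are arrays, bars are means, and an asterisk marks probes past the threshold in both fits. Dusp6 lies between 1.48 and 2.15 on every array, while Fgf2, Fgf21 and the Spred1 probe at 0.06 have opposite signs in the 2 orientations.

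The upstream sequences of 3 members are shown because the results turn on them: Dusp6, the member highest in MM, Fgfr2, the receptor higher in MM, and Spry1, the feedback gene lower in MM. Each line gives the 250 bases before the gene's annotated start, 5′ to 3′ on the gene's strand, from RefSeq (build GRCm38.p6). They lie at chr10:99262981-99263230 on the plus strand for Dusp6, chr7:130266809-130267058 on the minus strand for Fgfr2, and chr3:37639697-37639946 on the plus strand for Spry1. Capitals mark CGGAA or its reverse complement TTCCG, letters found within sites of ETS factors such as Etv4 and Etv5, which act downstream of FGF signals.
Dusp6: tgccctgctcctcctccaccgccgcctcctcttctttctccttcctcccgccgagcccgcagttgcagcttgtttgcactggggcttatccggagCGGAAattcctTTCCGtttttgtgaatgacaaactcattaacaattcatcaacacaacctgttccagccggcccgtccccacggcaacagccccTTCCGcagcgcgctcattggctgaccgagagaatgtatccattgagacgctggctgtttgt
Fgfr2: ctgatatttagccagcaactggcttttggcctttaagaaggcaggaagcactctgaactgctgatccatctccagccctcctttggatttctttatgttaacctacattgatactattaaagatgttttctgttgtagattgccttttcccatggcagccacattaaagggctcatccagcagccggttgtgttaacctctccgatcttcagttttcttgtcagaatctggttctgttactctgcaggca
Spry1: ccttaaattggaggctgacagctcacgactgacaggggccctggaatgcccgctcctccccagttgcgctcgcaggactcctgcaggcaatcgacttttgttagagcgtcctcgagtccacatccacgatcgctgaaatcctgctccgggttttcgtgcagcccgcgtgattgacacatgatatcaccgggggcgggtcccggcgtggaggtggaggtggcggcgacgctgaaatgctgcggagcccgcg
The motif was chosen after the Dusp6 window and the members' values had been seen, and it is a description with no test. It occurred 3 times in the Dusp6 window and 0 times in those of Fgfr2 and Spry1. Of all 32851 promoter windows of this length, 25.2% held at least 1 match and 2.12% held 3 or more, counting both strands and overlapping matches. Among called members with a window, 3 of 4 genes higher in MM (Dusp6, Dusp14 and Spred1) and 0 of 7 lower in MM held a match. The table had windows for 39 of the 51 member genes.

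The receptors were read first. Fgfr2, the receptor whose splice forms serve both the ureteric bud and the mesenchyme, read 0.87 and 0.71 in the first orientation, then 1.12 and 1.24 in the reversed one. All arrays put it higher in MM, and the values of the 2 orientations did not overlap. The mean was 0.99 ± 0.24 (SD, n = 4), a 1.98-fold difference (95% interval of the log2 ratio 0.84 to 1.13, limma adjusted p = 0.00125 and 0.00905). Of the 13191 measured probes, 5.75% had a higher mean.

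None of the other receptors passed in both fits. Fgfr1, the main mesenchymal receptor, read -0.15, -0.06, -0.27 and -0.24 on arrays 1 to 4. It was slightly on the IM side on all of them and passed only with the orientation term (mean -0.18 ± 0.09, limma adjusted p = 0.0164 and 0.0915). Fgfr4 read -0.33 and -0.22 in the first orientation, then 0.05 and 0.03 in the reversed one. Its sign followed the orientation and it did not pass (mean -0.12 ± 0.19, limma adjusted p = 0.0536 and 0.418). Fgfrl1, a receptor without a kinase domain whose loss stops kidney development in mice, read 0.09, 0.09, 0.02 and 0.01. Its mean of 0.05 ± 0.04 had a 95% interval of -0.02 to 0.13 (limma adjusted p = 0.157 and 0.444). Fgfr3 had values on arrays 1 and 2 alone, 0.53 and 0.45, and was not tested. Of the 4 tested receptors, 1 was higher and 0 were lower in both fits, and 1 was lower at an unadjusted p under 0.05 in limma without the orientation term.

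Markers of other tissues were read from lists. Of 11 tested probes for endoderm markers, 7 were higher and 0 lower in MM in both fits (1 was lower at an unadjusted p under 0.05 in limma without the orientation term), with a median of 1.02 and means from -0.27 to 2.81. Of 9 for limb bud and its ridge, 4 were higher and 0 lower (1 at an unadjusted p), with a median of 0.21 and means from -0.16 to 5.96 among the 8 above the floor. Of all tested probes, 13.6% were higher and 14.4% lower. The probes of these lists called in both fits had the same sign as Fgfr2, Dusp6, Dusp14 and the called Spred1 probe. That sign was not particular to these lists. Of 11 tested nephrogenic probes 6 were higher and 1 lower, and of 10 endothelial probes 4 were higher and 2 lower. The part of any of these markers in those results was not tested, and ratios hold no level for a tissue. Of 9 tested probes for tail bud and presomitic mesoderm, 0 were higher (also 0 at an unadjusted p under 0.05 in limma) and 1 was lower, where 13.6% and 14.4% of all tested probes passed, and nothing is read from so few. The endoderm list shares Cdx2 with the tail bud list and Sox17 with the endothelial one. Neural markers had 1 higher and 5 lower of 10 tested probes, endothelial markers 4 and 2 of 10, and erythroid markers 0 and 1 of 7 (0 were higher at an unadjusted p under 0.05 in limma without the orientation term).

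Feedback genes of the Sprouty and Spred families split by gene. Spry1, the Sprouty that restrains ureteric budding, read -0.33, -0.41, -0.48 and -0.56 on arrays 1 to 4. All arrays placed it lower in MM, by 0.45 ± 0.10 on average, which is 1.36-fold (95% interval -0.55 to -0.34, limma adjusted p = 0.00277 and 0.0125). Spry2 read 0.65 and 0.29, and Spry4 read 0.68 and 0.04, on arrays 1 and 2. Neither had a value on arrays 3 and 4, so neither was tested.

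Spred1, which recruits the Ras inhibitor neurofibromin to the membrane, had 2 probes that differed. One read 0.69, 0.55, 0.60 and 0.34, and was higher in MM on every array (mean 0.55 ± 0.15, 1.46-fold, limma adjusted p = 0.00671 and 0.0139). The other read -0.76 and -0.49 in the first orientation, then 1.10 and 0.40 in the reversed one, with a mean of 0.06 ± 0.85 (limma adjusted p = 0.748 and 0.934). The call for Spred1 thus rests on 1 probe, and that probe lost it without array 1 (adjusted p = 0.0752) or array 2 (adjusted p = 0.0634). Spred2 read -0.28, -0.36, -0.04 and -0.14. It lay on the IM side on every array but passed only with the orientation term (mean -0.20 ± 0.14, limma adjusted p = 0.017 and 0.128).

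Among the phosphatases, Dusp6 was the member most shifted to MM. It encodes a cytoplasmic phosphatase selective for ERK whose gene is a widely used readout of FGF signalling. Dusp6 read 1.97 and 2.15 in the first orientation, then 1.48 and 1.69 in the reversed one. Every array placed it at least 1.48 above 0, with arrays 1 and 2 above arrays 3 and 4. The mean was 1.82 ± 0.30, a 3.54-fold difference (95% interval 1.64 to 2.01, limma adjusted p = 0.000762 and 0.00403). Of the measured probes, 1.44% had a higher mean.

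The MAP kinase phosphatases grouped here were Dusp1, Dusp2, Dusp4, Dusp6, Dusp8, Dusp10 and Dusp16. Of these, the other called genes, Dusp16 and Dusp1, lay on the side opposite to Dusp6. Dusp14, called higher in MM, was counted with the atypical genes. Dusp16, which favours JNK and p38, read -0.57, -0.52, -0.48 and -0.60, and was 1.46-fold lower in MM (mean -0.54 ± 0.05, limma adjusted p = 0.0021 and 0.00481). Its orientations did overlap, and the spread over 4 arrays was among the smallest of the called members. Dusp1, an immediate early gene whose product is nuclear, read -0.23, -0.26, -0.28 and -0.32 (mean -0.27 ± 0.04, 1.21-fold lower, limma adjusted p = 0.00466 and 0.0177). Dusp4 read 0.03, 0.10, 0.30 and 0.30 and passed only with the orientation term (limma adjusted p = 0.0133 and 0.152). Dusp2 read 0.31 and 0.15 in the first orientation, then -0.48 and -0.35 in the reversed one, and Dusp8 read 0.40, -0.06, -0.26 and -0.29. Neither passed, and both changed sign between arrays. Dusp10, another JNK and p38 phosphatase, had 0.91 and 0.34 on arrays 1 and 2 alone. Of 6 tested probes of this group, 1 was higher and 2 were lower in both fits, with a median of -0.07.

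Many atypical Dusp genes have other substrates than MAP kinases. Of their 10 tested probes, 1 was higher and 4 were lower in both fits, against 13.6% and 14.4% of all tested probes. Dusp14 read 0.99 and 0.93 in the first orientation, then 0.48 and 0.54 in the reversed one. It was higher in MM throughout (mean 0.74 ± 0.26, 1.66-fold, limma adjusted p = 0.000975 and 0.0212). Dusp23, a small phosphatase, read -0.48 and -0.54 in the first orientation, then -1.22 and -1.18 in the reversed one. This was 1.81-fold lower in MM on average (mean -0.86 ± 0.40, limma adjusted p = 0.000774 and 0.0369), with a clear gap between orientations. Dusp19 read -0.62, -0.68, -0.50 and -0.47 (mean -0.57 ± 0.10, 1.48-fold lower, limma adjusted p = 0.00133 and 0.00748).

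Smaller differences were seen for the rest of the atypical group. Dusp11, which acts on RNA ends, read -0.29, -0.25, -0.37 and -0.35 (mean -0.32 ± 0.05, limma adjusted p = 0.00331 and 0.0153). One Dusp12 probe read -0.25, -0.29, -0.15 and -0.16 (mean -0.21 ± 0.07, limma adjusted p = 0.00769 and 0.0464). It lost its call without array 3 (adjusted p = 0.0559) or array 4 (adjusted p = 0.0562), and the other Dusp12 probe, at -0.17 ± 0.17, did not pass. Dusp26 (mean -0.37 ± 0.18), Dusp3 (mean -0.23 ± 0.10) and Dusp28 (mean 0.17 ± 0.04) passed only with the orientation term. Dusp13 read 0.68 and 0.44 in the first orientation and lay at the floor on both reversed arrays, so no fold is given. Dusp18 (2.54 and 1.19) and Dusp21 (-0.59 and -0.02) had values on arrays 1 and 2 alone, and Dusp22 had 1.20, 0.95 and, on array 4, -0.83.

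Few ligands could be measured in both orientations. Of 24 ligand probes, 6 had values above the floor on all 4 arrays (25.0%), against 58.1% of all probes and 15 of 20 Dusp probes. In both fits 0 of the 8 tested ligand probes were higher (also 0 at an unadjusted p under 0.05 in either limma fit) and 1 was lower. That was Fgf6, known from skeletal muscle, at -0.73, -0.64, -0.96 and -0.83. It was 1.73-fold lower in MM (mean -0.79 ± 0.14, 95% interval -0.91 to -0.67, limma adjusted p = 0.00136 and 0.00589). Of 11 tested probes of muscle and somite markers, 6 were lower and 1 was higher in MM, against 14.4% and 13.6% of all tested probes. Their median was -0.95, with means from -2.57 to 0.97 among the 10 above the floor. This was not particular to muscle. For gonad and adrenal markers 6 of 8 tested probes were lower and 1 higher, and for neural markers 5 of 10 were lower and 1 higher. The part of any of these markers in the Fgf6 result was not tested.

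Fgf8, which the mouse nephron needs, read -0.02 and 0.34 in the first orientation, then -0.28 and -0.21 in the reversed one. The values lay on both sides of 0, with a mean of -0.04 ± 0.28 and a 95% interval of -0.27 to 0.19 (limma adjusted p = 0.674 and 0.862). Fgf2, a ligand stored on heparan sulfate, read 0.40 and 0.35 in the first orientation, then -0.49 and -0.55 in the reversed one. Its arrays were close together within an orientation and had opposite signs between orientations (mean -0.07 ± 0.52, limma adjusted p = 0.105 and 0.863). The endocrine ligands Fgf15 and Fgf21 also had opposite signs between orientations, in the other direction. For Fgf21 the arrays of the first orientation lay far apart. Fgf15 read -0.27 and -0.18 in the first orientation, then 0.47 and 0.28 in the reversed one, and Fgf21 read -1.70 and -0.44 against 0.61 and 0.73. Neither passed. One Fgf1 probe read -0.33, -0.27, 0.06 and -0.17 and did not pass (limma adjusted p = 0.0601 and 0.212).

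The remaining 18 ligand probes lacked a measured value on array 3, array 4 or both. Fgf10, the ligand of the bud's Fgfr2, read 4.06 and 4.64 on arrays 1 and 2, had no value on array 3 and stood at the floor on array 4. Fgf17, of the same subfamily as Fgf8, read 3.07 and 4.82 in the first orientation and lay at the floor on both reversed arrays. Both were thus far to the MM side in one orientation and at the opposite end of the scale in the other. The floor probes Fgf17, Fgf12 (2.77 and 1.15 on arrays 1 and 2) and Dusp13 passed as lower in limma with the orientation term alone, and arrays 1 and 2 put each of them on the MM side.

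A positive sign on arrays 1 and 2 was common among probes at the floor on arrays 3 and 4. Of 918 probes at the floor on arrays 3 and 4 with values on the others, 76.9% were positive on both arrays 1 and 2. Of 13201 probes measured on arrays 3 and 4 and on the others, 36.0% were. The means of arrays 1 and 2 had a median of 1.14 over the 918 floor probes, below the values of Fgf17. Fgf10, with no value on array 3, is not among them. No tissue direction is given here for members at the floor.

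Ligands described in kidney progenitors were not settled. Fgf20 read 2.99 and 0.25 on arrays 1 and 2 and had no value on the others. Fgf9 read 1.83 and -2.76 on arrays 1 and 2 and 1.02 on array 4, and Fgf7 read -1.54 and 3.93 with the floor on array 4. The arrays of 1 orientation thus disagreed in sign for Fgf9 and Fgf7. Fgf5 did so too, at -3.57 and 3.95. Among ligand probes without a measured value on arrays 3 and 4, arrays 1 and 2 differed by a median of 0.64 on the log2 scale, against 0.10 over all probes measured on 4 arrays and 0.56 over all probes unmeasured on arrays 3 and 4.

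Fgf13 came closest to a shared direction among these incomplete ligands. It encodes an intracellular member of the family that binds sodium channels and not FGF receptors. It read 3.42 and 4.49 on arrays 1 and 2 and 1.05 on array 4, positive wherever it was measured, and was not tested for want of a value on array 3. Its relatives Fgf11, Fgf12 and Fgf14 had no such pattern. One Fgf11 probe read 2.96 and 1.27 with the floor on array 4, and the other read -0.21 and 0.24 with the floor on array 3. Fgf14 read -0.52 and 0.12 on arrays 1 and 2 alone. The second Fgf1 probe read 1.68 and 0.15 with the floor on array 4. Fgf22 read 0.36 and 0.13 on arrays 1 and 2 and -0.65 on array 4. The rest had values on arrays 1 and 2 alone: Fgf18 at 1.00 and 0.53, Fgf23 at 0.74 and 0.67, Fgf3 at 0.57 and 0.66, Fgf16 at 0.47 and 0.57, and Fgf4 at -0.20 and -0.18.

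**Figure D2:**
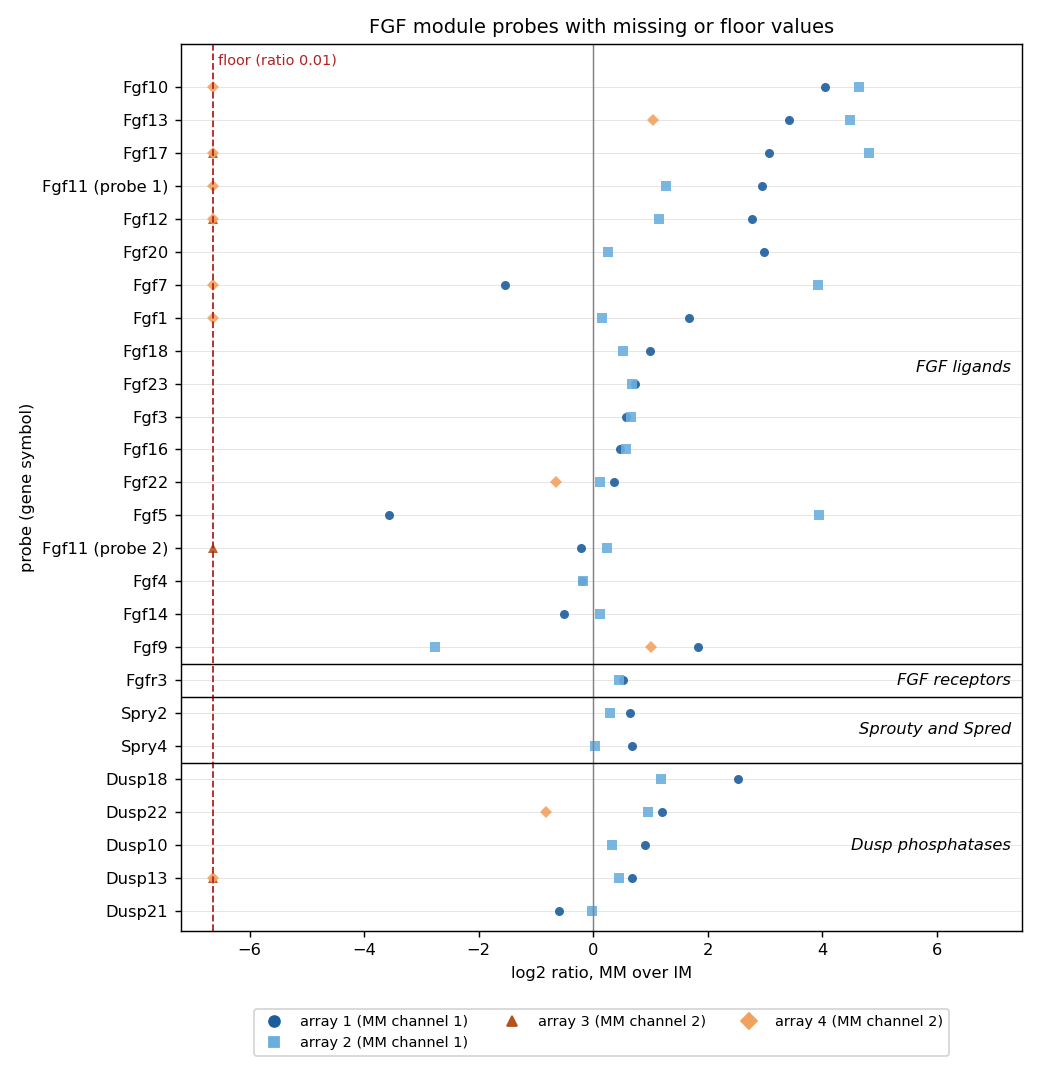
Log2 ratio of MM over IM (horizontal axis) for the 26 member probes with a missing value or a value at the floor (dashed line), by class. Symbols are arrays. Fgf10, Fgf17 and Fgf12 lie above 1 on arrays 1 and 2 and at the floor on array 4, and Fgf5, Fgf7 and Fgf9 have opposite signs on arrays 1 and 2.

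The classes were also set side by side, without a test. Over probes above the floor on all arrays, the median log2 ratio was -0.13 for 6 ligand probes, -0.03 for 4 receptor probes, -0.07 for 4 Sprouty and Spred probes and -0.21 for 15 Dusp probes, against -0.05 for all measured probes. Means ranged from -0.79 to 0.07 in ligands, from -0.18 to 0.99 in receptors, from -0.45 to 0.55 in Sprouty and Spred genes and from -0.86 to 1.82 in Dusp genes. Measured members had the same sign in both orientations for 21 of 29 probes, against 61.0% of all measured probes. The orientation term passed for 13 of 32 tested members, against 44.6% of all tested probes.

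**Figure D3:**
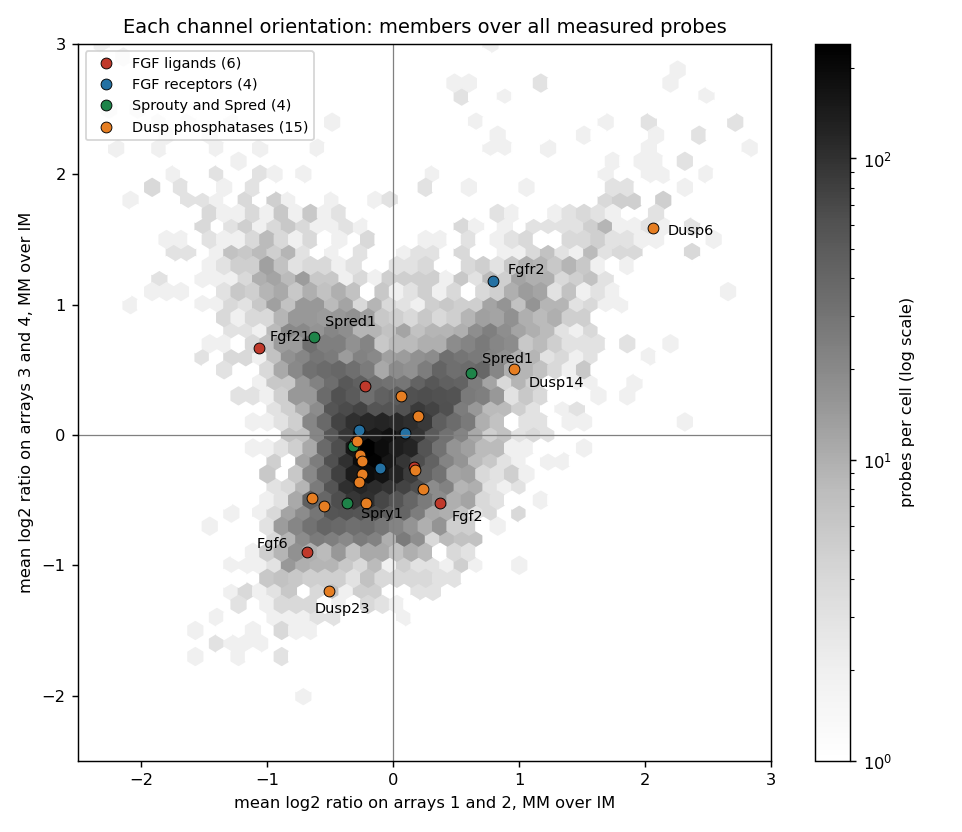
Mean log2 ratio of MM over IM on arrays 3 and 4 (vertical axis) against that on arrays 1 and 2 (horizontal axis) for the 29 measured member probes (coloured by class), over all 13191 measured probes (grey, number per cell on a log scale, with probes beyond the axes not drawn). Dusp6, Fgfr2, Dusp14 and 1 Spred1 probe lie in the upper right, where both orientations are positive, and Fgf21 and the other Spred1 probe lie on the arm where the orientations oppose each other.

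Genes around the receptors were read from 3 lists: the ERK cascade, transcription that responds to ERK, and heparan sulfate with co-receptors. Of 22 tested probes of the ERK cascade, 5 were higher and 3 lower in MM in both fits (22.7% and 13.6%, against 13.6% and 14.4% of all tested probes), and the list median was 0.19 against -0.08 for all tested probes. Cbl, a ubiquitin ligase that takes activated receptors down, read 1.22 and 0.93 in the first orientation, then 2.60 and 2.86 in the reversed one (mean 1.90 ± 0.97, limma adjusted p = 0.00104 and 0.0428). It was higher in MM on all arrays, by more on arrays 3 and 4. The kinase Akt1 read 0.99, 1.07, 0.84 and 1.01 (mean 0.98 ± 0.10, limma adjusted p = 0.00118 and 0.00296). Map2k1, which activates ERK, was higher by 0.54 ± 0.28 (limma adjusted p = 0.00287 and 0.0489). Ptpn11 (by 1 probe), Sos1 and Grb2 were lower in both fits. Nras (0.39 ± 0.14, limma adjusted p = 0.0142 and 0.0287) and Rasa1 (0.22 ± 0.02, limma adjusted p = 0.00723 and 0.0266) were higher in both. Gab1 (-0.23 ± 0.18) passed as lower, and 1 Plcg1 probe (2.39 ± 1.79) as higher, only with the orientation term. Sos2 and the other Plcg1 probe passed in neither fit, so these genes had no shared direction. Shc1, an adaptor, averaged 0.16 ± 0.17 and passed only with the orientation term (limma adjusted p = 0.031 and 0.246), and the adaptor Frs3 read 0.91 and 0.92 on arrays 1 and 2 alone. Ptpn11, a phosphatase that FGF receptors need to activate Ras, was lower by 1 probe (-0.48 ± 0.11, limma adjusted p = 0.00237 and 0.0125), while its other probe read 1.31 and 0.71 on arrays 1 and 2 alone. Sos1, the exchange factor of Ras, was lower too (-0.49 ± 0.18, limma adjusted p = 0.00268 and 0.0266). So was the adaptor Grb2 (-0.31 ± 0.11, limma adjusted p = 0.00665 and 0.0331).

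Of 15 tested probes for genes known to respond to ERK, 2 were higher and 2 lower in both fits (13.3% each, against 13.6% and 14.4% of all tested probes), with a median of -0.03. These shares were near those of all probes. Ier2, an immediate early gene, read 1.63, 1.67, 2.63 and 2.21 (mean 2.04 ± 0.48, 4.10-fold, limma adjusted p = 0.00104 and 0.00765). Myc, a growth regulator, read 0.85, 0.89, 0.82 and 0.78, higher in MM with little spread (mean 0.84 ± 0.05, limma adjusted p = 0.000734 and 0.00256). Phlda1 (-0.62 ± 0.10, limma adjusted p = 0.00206 and 0.00625) and the factor Srf (-0.50 ± 0.07, limma adjusted p = 0.00327 and 0.00721) were lower.

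The ETS factors most often read together with Dusp6 as FGF targets had no call in both fits. Etv4 read 0.32, 0.11, 1.86 and 0.68, positive on every array but widely spread (mean 0.74 ± 0.78, limma adjusted p = 0.069 and 0.205). One Etv5 probe read 1.54 and 1.43 in the first orientation, then -0.17 and -0.15 in the reversed one, and the other stayed between -0.13 and 0.12. The immediate early gene Fos read 0.11, 0.16, -0.24 and -0.26 and did not pass. Egr1 had 1.69 and -1.56 on arrays 1 and 2 alone.

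Heparan sulfate and co-receptor genes called in both fits were all on the MM side. Of 27 tested probes, 5 were higher and 0 lower in both fits, where 13.6% and 14.4% of all probes passed. In limma without the orientation term 2 were lower at an unadjusted p under 0.05. With it 9 were higher and 7 lower after adjustment, and 5 of those 7 had no value at the floor. The median of the list was -0.03, against -0.08 for all tested probes. Over its 24 probes above the floor it was 0.008, against -0.05 for all measured probes. The list as a whole thus lay near 0. Gpc6, a glypican, was higher by both its probes (0.60 ± 0.13 and 0.51 ± 0.09). Glce, the epimerase that shapes heparan sulfate chains, was higher by 0.74 ± 0.14 (limma adjusted p = 0.00247 and 0.00665). Cdh2, a cadherin that binds FGF receptors, was higher by 0.38 ± 0.09, and the syndecan Sdc1 by 0.18 ± 0.03.

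**Figure D4:**
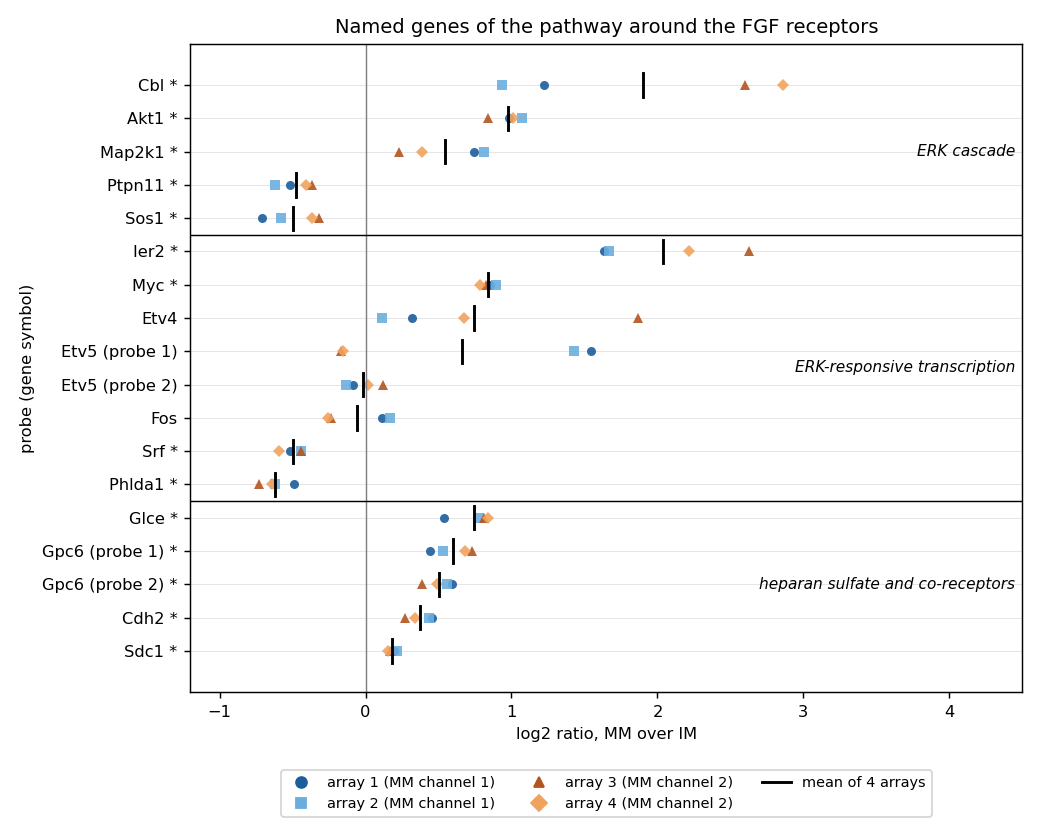
Log2 ratio of MM over IM (horizontal axis) for the named genes of the 3 pathway lists with values on all 4 arrays. Shc1, Grb2, Nras, Rasa1, Gab1, Sos2 and Plcg1 are not drawn. Symbols are arrays, bars are means, and an asterisk marks probes past the threshold in both fits. Ier2 lies between 1.63 and 2.63, while 1 Etv5 probe is positive on arrays 1 and 2 and negative on arrays 3 and 4.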

How the data were processed

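Each array has 1 deposited log2 ratio for a probe. Per the labels, spots were quantified with Imagene 5.5, the authors exchanged the channels of arrays 3 and 4, adjusted the control channel by lowess with a 20% span, and raised lower control values to 10. How background was corrected and spots were filtered is not given in the sources used here. No intensities were used, so how far a spot stood above background is unknown, and precision is limited by having 4 arrays.

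Probe symbols came from the platform annotation. Of 22702 probes, 17252 had 1 symbol, 156 several (left unnamed) and 5294 none. Ratios of the 14184 probes with 4 values were fitted with limma 3.58.1 in R 4.3.3, first with both a tissue intercept and an orientation term, then with the intercept alone, and p-values were adjusted by Benjamini-Hochberg over all of them. Errors are SDs over 4 arrays. Both fits were also run on simulated data, with noise set by the spread within each orientation and a channel effect that cancels between orientations. That run cannot cover other disagreement between orientations or shared RNA extracts. Values on each array are given for members called in both fits, receptors, ligands and feedback genes with a kidney role, and members at the floor or with discordant probes. Of each pathway list, up to 5 genes of smallest adjusted p called in both fits are named. Etv4, Etv5, Egr1 and Fos are added, as are Grb2, Shc1, Frs3, Nras, Rasa1, Gab1, Sos2 and Plcg1 of the ERK cascade list. The few members outside the rule for members were added so that all 55 probes are accounted for. The members and lists were chosen with earlier results of these data known. Alternatives covered floor values, centring, scaling, array weights, missing values, single arrays, single orientations and probe averaging.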

Additional observations from a re-analysis of the deposited data

How the results depend on the processing

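The 12 members called in both fits kept their calls when arrays were weighted, centred on their medians or scaled. They also kept them when probes with 3 or more values were used and when floor probes were left out. Those settings could hardly end a call, because all 12 had 4 values above the floor and their means stayed the same. With arrays 1 and 2 alone 9 of 12 passed, without Dusp1 (adjusted p = 0.0541), Dusp11 (0.0501) and Dusp12 (0.0504), and with arrays 3 and 4 alone 11 passed, without Spred1 (0.088). Averaging the probes of a gene ended the call for Spred1 (0.0689). With each orientation averaged to 1 value, limma called 0 probes (1022 were higher and 504 lower at an unadjusted p under 0.05), so every count below was 0 and the smallest adjusted p was 0.461. That setting leaves 2 values a probe. Over all probes, 3371 higher and 5408 lower became 1932 and 2036 without the orientation term, and 2905 were lower with arrays 1 and 2 alone. Leaving out 1 array gave 2480 to 2705 higher and 3295 to 4181 lower. Of the members, 6 higher and 15 lower became 4 and 8 without the orientation term, 8 were lower with arrays 1 and 2 alone, and leaving out 1 array gave 4 to 5 higher and 9 to 14 lower, with 9 without array 3 or array 4. In the ERK cascade, 11 higher and 6 lower became 5 and 3 without the orientation term, 6 were higher with arrays 1 and 2 or arrays 3 and 4 alone, and leaving out 1 array gave 6 to 8 higher. Among ERK-responsive genes, 4 higher and 4 lower became 2 and 2 without the term, 2 were higher with arrays 3 and 4 alone, 2 were lower with arrays 1 and 2 alone, and leaving out 1 array gave 2 to 4 lower. In the heparan sulfate list, 9 higher and 7 lower became 5 and 0 in limma without the term (2 lower at an unadjusted p under 0.05), 3 were lower with arrays 1 and 2 alone, and leaving out 1 array gave 3 to 6 lower. The ligand median was -0.19 over the 8 tested probes, floor probes included, and -0.13 without floor probes. It was -0.50 over probes with 3 or more values, which adds further floor probes. Over the tested probes it was -0.12 without array 1, -0.35 without array 2, -0.03 with arrays 1 and 2 alone and -0.38 with arrays 3 and 4 alone. The receptor median of -0.03 was 0.0283 with centred arrays and 0.0281 with arrays 3 and 4 alone. The Dusp median of -0.22, with Dusp13 at the floor included, was -0.16 with centred arrays and -0.29 with arrays 3 and 4 alone. The Sprouty and Spred median of -0.07 ran from -0.17 without array 3 to 0.03 without array 4, and was -0.35 with arrays 1 and 2 alone and 0.19 with arrays 3 and 4 alone. Means changed sign with arrays 1 and 2 alone for Dusp13 (0.56), Dusp2 (0.23), Dusp8 (0.17), the uncalled Spred1 probe (-0.63), Fgf12 (1.96), Fgf15 (-0.23), Fgf17 (3.94), Fgf2 (0.37) and Fgf8 (0.16), and with arrays 3 and 4 alone for Fgf21 (0.67) and Fgfr4 (0.0405). They did so with centred arrays for Dusp8 (0.0108) and Fgf8 (0.0194). As 1 array was left out, the mean ran from -0.52 to 0.11 for Fgf21 and from -0.13 to 0.0494 for Fgf8 (both positive without array 1), from -0.16 to 0.0646 for Dusp8 (positive without array 2), and from -0.11 to 0.24 for the uncalled Spred1 probe (negative without array 2 or array 3). None of these genes was called in both fits, and the cause was not tested. Fgfr4 passed as lower with floor probes left out (adjusted p = 0.0488), with scaled arrays (0.0401) and without array 2 (0.0337). Each ratio already pairs MM and IM within 1 array, so no separate paired analysis was run.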
